A study of Homo sapiens with 18 samples.

Results

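Neural ectoderm cells that had been given a posterior start (pNE) were compared with cells given an anterior start (aNE) after both were moved to the same hindbrain medium and grown to day 4 (pNE_H and aNE_H). The members were the 4 libraries of these 2 groups, out of 18 libraries in 9 groups, chosen by their labels alone, and the genes with a TPM value (transcript abundance scaled to gene length and to a fixed total) of at least 1 in at least 2 of the 4, which were 14260 of 37550 rows. All cells came from H1, an established wild-type human pluripotent stem cell line, so every value is from 1 line, and each group had 2 biological replicates, described as distinct in the design. For cells of either origin day 1 was spent in a definitive ectoderm medium with the TGF-beta receptor inhibitor A8301 at 1 µM, the MEK inhibitor trametinib at 250 nM, the porcupine inhibitor C59 at 1 µM and the BMP receptor inhibitor LDN193189 at 100 nM. On day 2 both media held A8301 at 1 µM, LDN193189 at 100 nM and thiazovivin. To these the aNE medium added C59 at 1 µM, which blocks WNT secretion. The pNE medium instead added TTNPB at 50 nM, an agonist of retinoic acid receptors, with FGF2 at 20 ng/mL and XAV939 at 1 µM, which lowers WNT signalling inside the cell. From day 2 to day 4 both groups were in hindbrain medium, whose composition is not known here. For cultures kept beyond day 2 the labels give a plating density of 75000 per cm2 with aNE, naming forebrain cultures as the example, and 150000 per cm2 with pNE, naming hindbrain cultures. No density is given for aNE_H by name. Read as holding for each origin in every medium, these densities mean that origin and plating density cannot be told apart at day 4. The day-2 cultures of the 2 origins shared a density of 37500 per cm2. The comparison asks what an earlier anterior or posterior history leaves in cells that then share a hindbrain medium.

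The vertebrate hindbrain is laid down in segments called rhombomeres, and HOX transcription factors with their MEIS and PBX partners give the segments behind the most anterior one their identity. Retinoic acid, bound by RAR and RXR receptors, switches on the HOX genes at one end of each cluster first and also switches on the enzymes that destroy it, such as CYP26A1. OTX2, a forebrain and midbrain factor, and GBX2, an anterior hindbrain factor, repress each other where midbrain meets hindbrain, at the isthmus, which secretes FGF8.

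The 4 libraries were alike in quality. Between 19275 and 20083 genes were above 0 TPM and 13811 to 14027 genes had at least 1 TPM. Mitochondrial genes took 1.89% to 2.06% of TPM, and ribosomal protein genes took 20.1% and 21.7% in aNE_H and 22.8% and 23.1% in pNE_H. Pearson's r across genes, which are not independent replicates, was 0.983 within each group and 0.938 to 0.940 between groups. TPM lets levels of different genes be set side by side, but the number of reads is unknown and no counting interval can be given. These are bulk libraries, in which fewer cells of a type and less RNA per cell cannot be told apart.

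A gene was called where limma, fitted to log2(TPM + 1), gave a Benjamini-Hochberg adjusted p under 0.05 and a log2 difference (pNE_H minus aNE_H) of at least 1 in size. Of the 14260 genes, 1155 were called (8.10%), 663 higher in pNE_H (4.65%) and 492 lower (3.45%). Large differences were more often upward: 89 genes were higher by at least 3 on the log2 scale and 19 were lower by at least 3. The median log2 difference of all tested genes was -0.06. The level filter takes part in these counts, since 224 of the genes called higher passed it through pNE_H alone and 118 of those called lower through aNE_H alone. With no fold criterion 3788 genes passed, 1570 higher and 2218 lower, so that the balance of directions turned. Among the called genes named below, AXIN2, CCN2, CLDN4, CLDN6, COL22A1, FABP7, GLI3, HHIP, ID3, MSX1, SLC2A1, SMAD6 and TCF7L1 lost the call without 1 of the 4 libraries. Most of them, though not COL22A1, lay close to a log2 difference of 1 in size. The part of plating density in any of these calls was not tested. The plot of levels by origin shows where the named genes lie.

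**Figure D1:**
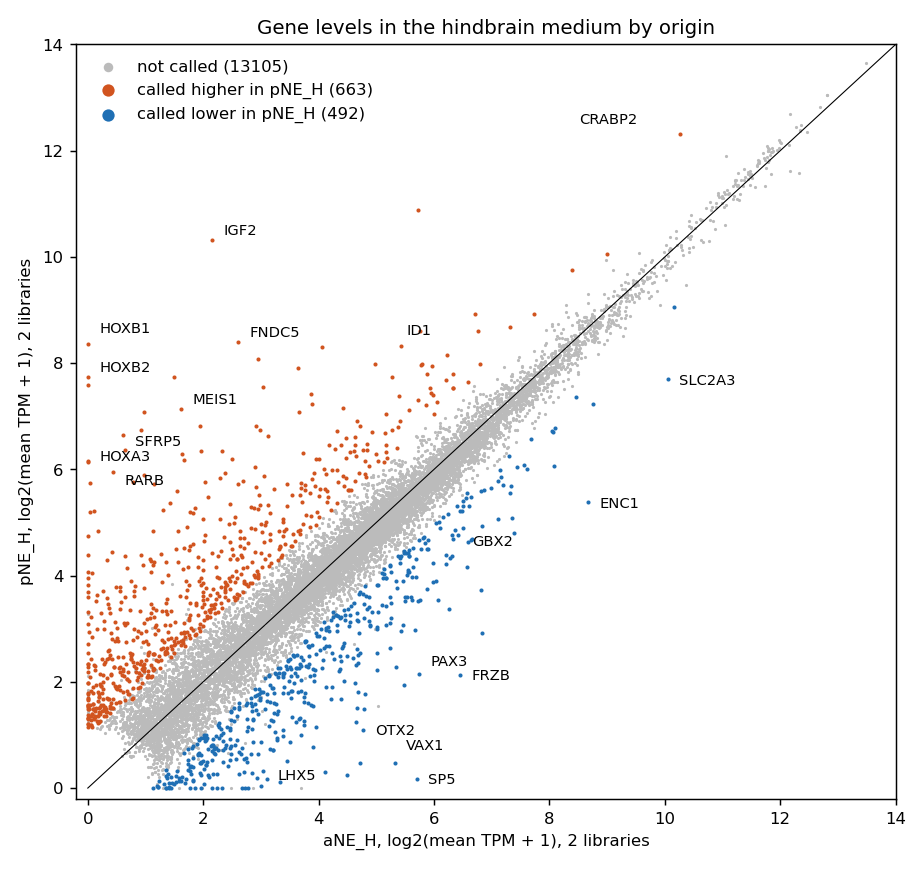
Mean level of each tested gene in 2 aNE_H libraries (x axis) and 2 pNE_H libraries (y axis), both as log2(mean TPM + 1), with the diagonal marking equal levels. The 663 genes called higher in pNE_H lie above the diagonal, among them IGF2 and the HOX genes that sit at 0 on the x axis, and the 492 called lower lie beneath it, with SP5 and VAX1 near 0 on the y axis.

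Anterior HOX genes, the segment identity genes of the hindbrain, were measured in pNE_H and listed at 0 in aNE_H. Of the 12 listed, 9 passed the level filter, through pNE_H alone, and each of them was called higher and was listed at 0 in both aNE_H libraries. A gene that passes in this way has to differ, so the count adds nothing to the levels themselves. HOXB1 (chromosome 17, 48528526 to 48531011 of GRCh38.p14), a gene of the early hindbrain, was at 347 and 312 TPM in pNE_H (adjusted p = 9e-14). HOXB2 reached 253 and 172 TPM. Within the HOXB cluster HOXB3 had 72.1 and 67.1 TPM and HOXB4 only 1.58 and 1.02 TPM, so the first members of the cluster stood highest. HOXA3 was at 81.1 and 59.9 TPM, HOXD1 at 27 and 24.6 TPM, HOXA2 at 15.2 and 16.4 TPM and HOXD3 at 13.6 and 12.5 TPM. The 3 that did not pass the filter were also listed at 0 in aNE_H, with 0.257 and 0.799 TPM for HOXA4, 0.466 and 0.28 TPM for HOXC4 and 0.914 and 1.12 TPM for HOXD4 in pNE_H. Trunk HOX genes, which mark spinal levels, were sparse: 2 of 15 passed the filter, HOXA5 at 14.7 and 14.2 TPM and HOXB5 at 4.6 and 3.49 TPM, both through pNE_H alone, listed at 0 in aNE_H and called higher, and 6 of the 15 were listed at 0 in all 4 libraries. Whether the quantification used the strand is not given in the sources used here, so antisense transcripts of the HOX clusters may share these values.

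The MEIS genes, which encode HOX cofactors, were higher in pNE_H. Among the 20 of 24 hindbrain patterning factors that passed the filter, 10 were called higher and 3 lower in pNE_H, beside 4.65% and 3.45% of all tested genes, and 2 of the 10 passed through pNE_H alone. MEIS1 had 2.42 and 1.69 TPM in aNE_H and 128 and 150.5 TPM in pNE_H (log2 difference 5.53 ± 0.22 SE, adjusted p = 6.3e-10, limma). MEIS2 went from 29 and 32 TPM to 239 and 266 TPM (3.01 ± 0.12). MEIS3 was higher by a smaller step (1.20 ± 0.10).

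Factors of single rhombomeres and of the early hindbrain were among them. EGR2, also known as KROX20, had 0.202 and 0.032 TPM in aNE_H and 7.47 and 6.54 TPM in pNE_H (2.84 ± 0.26). Both pNE_H values were far above both aNE_H values. ZNF503 (15.3 and 11.9 against 186 and 152 TPM) and ZNF703 (4.63 and 3.39 against 93.1 and 66.7 TPM), paired zinc finger proteins of the early hindbrain, were called higher, as was IRX3 (9.85 and 6.02 against 39.4 and 30.7 TPM). The 3 lower members were GBX2, SP8 and EPHA7. GBX2, the anterior hindbrain factor, was at 91.9 and 88 TPM in aNE_H and 33.1 and 24.8 TPM in pNE_H (-1.62 ± 0.19, adjusted p = 3e-05). SP8, a zinc finger factor of the isthmus and telencephalon, was at 59.9 and 40.5 TPM and 7.76 and 5.95 TPM (-2.69 ± 0.18). NR2F2, a nuclear receptor, had 59.7 and 47.6 TPM in aNE_H and 27.7 and 25.9 TPM in pNE_H, and its log2 difference of -0.97 did not reach the fold criterion.

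Forebrain and eye field factors lay on the opposite side. Of 23 listed, 15 passed the filter, 11 were called lower in pNE_H and none was called higher, beside 3.45% of all tested genes called lower, though 6 of the 11 passed the filter through aNE_H alone. OTX2, the head selector gene, had 25.2 and 27.7 TPM in aNE_H and 1.37 and 0.908 TPM in pNE_H (-3.69 ± 0.14, adjusted p = 4.1e-10). VAX1, a ventral forebrain and optic stalk factor, had 38.5 and 39.1 TPM and 0.258 and 0.527 TPM (-4.85 ± 0.21). FEZF1 and LHX5, both early forebrain factors, were at 32.2 and 18.4 TPM and 25.8 and 17 TPM in aNE_H and at 0.55 and 0.221 TPM and 0.148 and 0.227 TPM in pNE_H, in that order, both called. SIX3, which keeps the rostral forebrain from taking posterior fate, remained measurable in both origins, with 73.8 and 58.1 TPM in aNE_H and 10.8 and 10.4 TPM in pNE_H (-2.52 ± 0.15). LHX2 (31 and 18 against 1.63 and 2.03 TPM) and SIX6 (2.86 and 3.2 against 0.0786 and 0.0346 TPM) showed the same order at lower levels. FEZF2 and TCF7L1 were also called lower. PAX6 did not pass the test, at 3.87 and 3.44 TPM in aNE_H and 5.39 and 5.39 TPM in pNE_H.

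Of 16 midbrain and isthmus factors 10 passed the filter, and 3 were called higher and 3 lower (60.0%, beside 8.10% of all tested genes). The filter takes part in this count, since 2 of the 3 higher passed through pNE_H alone and 2 of the 3 lower through aNE_H alone. FGF8, the isthmus signal, was at 9.83 and 5.36 TPM in aNE_H and 0 and 0.24 TPM in pNE_H (-2.90 ± 0.33), and its relative FGF17 at 7.99 and 6.02 TPM and 0.058 and 0 TPM (-2.95 ± 0.19). PAX5, a factor of the isthmus, was at 8.77 and 19.1 TPM and 0.111 and 1.3 TPM (-3.13 ± 0.35, adjusted p = 1.3e-05), with wide gaps between the replicates of each group. PAX8 went the other way, from 0.501 and 0.0649 TPM in aNE_H to 6.25 and 3.84 TPM in pNE_H (2.23 ± 0.27), as did POU3F2 (5.44 and 4.54 against 19 and 18.9 TPM) and the floor plate factor FOXA2 (0.501 and 0.107 against 5.0 and 4.29 TPM). EN1, EN2 and WNT1, which define the midbrain and isthmus, did not pass the filter, and their highest values were those of EN1 in aNE_H, at 0.989 and 0.749 TPM. Of 14 caudal progenitor factors, which mark the cells that build the trunk, 6 passed the filter. Of these, 66.7% were called, beside 8.10% of all tested genes. CDX2 (0.789 and 0.152 against 3.34 and 4.39 TPM) and CYP26A1 were called higher and SP5 and FGF8 lower, and the other 2 were not called. Of these calls, 1 of the 2 higher and both lower had passed the filter through that group alone. In the plot of regional factors the HOX genes and the hindbrain genes shown, apart from GBX2, lie higher in pNE_H and the forebrain genes lower. SP8 and EPHA7, also called lower, and the hindbrain patterning factors that were not called are not in the plot.

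**Figure D2:**
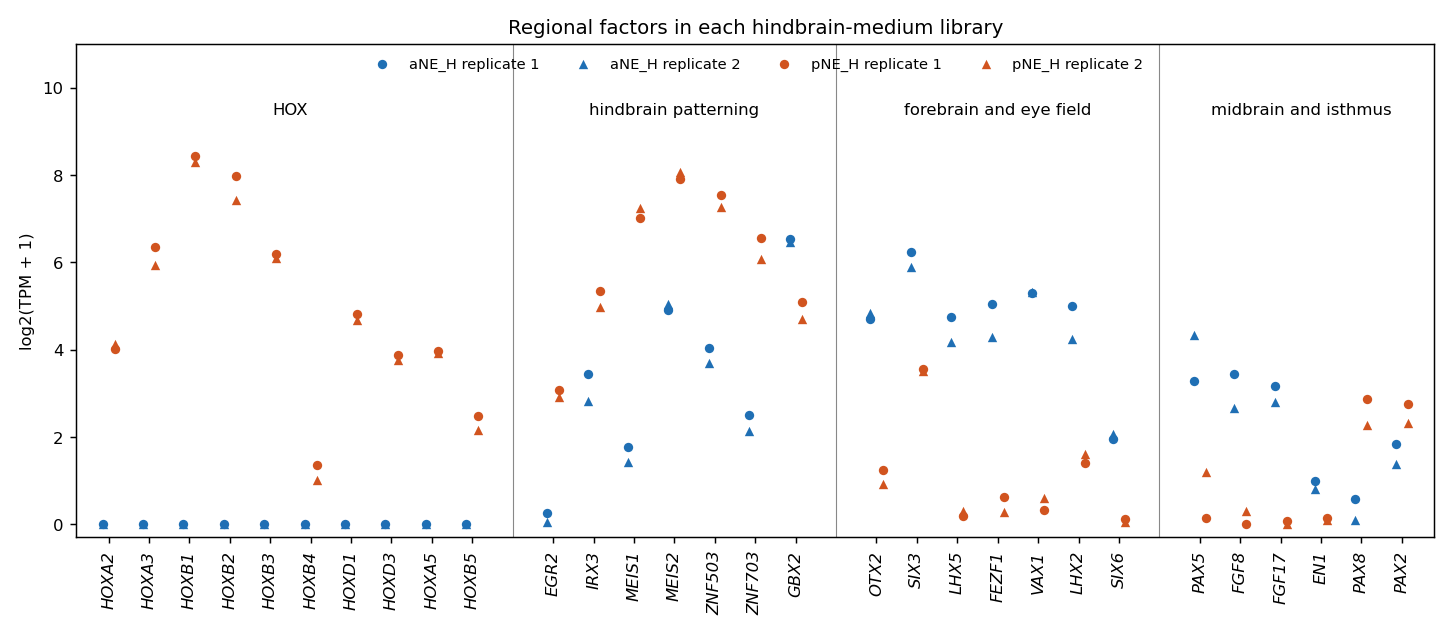
Level of each regional factor, as log2(TPM + 1) on the y axis, in each of the 4 libraries, with blue for aNE_H, orange for pNE_H, circles for replicate 1 and triangles for replicate 2. All 10 HOX genes shown lie at 0 in aNE_H, whereas the forebrain factors, with GBX2, PAX5, FGF8 and FGF17, lie higher in aNE_H.

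Of 20 retinoid pathway genes, which carry, make, destroy or answer retinoic acid, 14 passed the filter, 8 were called higher in pNE_H and none lower, beside 4.65% and 3.45% of all tested genes. Of the 8, 1 (RARB) passed the filter through pNE_H alone, so its direction was fixed. RARB, a receptor gene that retinoic acid itself induces, had 0.478 and 0.213 TPM in aNE_H and 56.9 and 65.5 TPM in pNE_H (5.53 ± 0.16, adjusted p = 1.9e-11). DHRS3, which turns retinal back to retinol, had 0.765 and 1.03 TPM and 106 and 107 TPM (5.83 ± 0.13). CYP26A1, the enzyme that breaks retinoic acid down, had 2.49 and 2.62 TPM and 39.5 and 31.1 TPM (3.34 ± 0.17).

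Carriers of retinoids were abundant in both origins. CRABP2, which delivers retinoic acid to its receptors in the nucleus, had 1158 and 1298 TPM in aNE_H and 5022 and 5105 TPM in pNE_H (2.05 ± 0.09), the highest level in pNE_H of any gene called. STRA6, the retinol importer, had 109 and 105 TPM and 408 and 372 TPM (1.85 ± 0.12). RDH10, which makes retinal, was at 19.4 and 9.69 TPM and 73.3 and 71 TPM, and RARA at 20.6 and 19.5 TPM and 91.7 and 82 TPM, both called higher. CRABP1 differed in the opposite direction, with 983 and 946 TPM in aNE_H and 533 and 559 TPM in pNE_H, without reaching the fold criterion (-0.82 ± 0.06). RARG (17.1 and 12.6 against 9.9 and 14.4 TPM) and ALDH1A2, which makes retinoic acid (2.14 and 0.718 against 2.86 and 1.7 TPM), did not pass the test.

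Retinoic acid receptors bind paired half-sites 5 bases apart, an arrangement called DR5, and the promoters of the receptor gene and of the degrading enzyme are shown because both genes were called higher and both hold one. The repeats searched were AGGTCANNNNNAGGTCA, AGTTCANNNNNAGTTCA, GGGTCANNNNNGGGTCA and GGTTCANNNNNGGTTCA, and any pairing of their 6-letter parts, on both strands of the RefSeq window from 250 bases before to 50 bases after a start site. No other motif was searched. The 250 bases before the start are printed from 5′ to 3′ on the gene's strand, with the DR5 in capitals, from RefSeq on GRCh38.p14. The RARB stretch is chr3:25428013-25428262, plus strand, and its element runs from 53 to 37 bases before the start. For CYP26A1 it is chr10:93073643-93073892, plus strand, with the element on the opposite strand from 90 to 74 bases before the start.
RARB: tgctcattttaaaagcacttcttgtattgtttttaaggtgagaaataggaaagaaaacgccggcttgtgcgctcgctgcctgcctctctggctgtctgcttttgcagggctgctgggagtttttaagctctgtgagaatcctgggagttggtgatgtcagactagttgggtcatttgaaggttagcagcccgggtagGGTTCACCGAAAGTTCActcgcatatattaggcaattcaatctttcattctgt
CYP26A1: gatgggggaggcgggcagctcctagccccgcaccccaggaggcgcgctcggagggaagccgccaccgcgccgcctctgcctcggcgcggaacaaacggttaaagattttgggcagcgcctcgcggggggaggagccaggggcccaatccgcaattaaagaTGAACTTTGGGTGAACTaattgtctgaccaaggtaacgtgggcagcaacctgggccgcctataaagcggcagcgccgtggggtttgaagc
The RARB window is 1 of 4 start sites listed for that gene and the CYP26A1 window 1 of 2. Across all 35116 windows, 31 (0.0883%) held such an element. Of the 10673 tested genes with a window, 9 held one: 4 of 462 called higher, 0 of 341 called lower and 5 of 9870 not called. The other 2 called genes were BATF2 (0.82 and 0.338 TPM in aNE_H, 3.84 and 4.31 TPM in pNE_H) and CYB5R2 (22.9 and 21 against 47.8 and 48.3 TPM), both named after their values were seen. A match in these letters is a description of the sequence and not a measured binding site.

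IGF2, a fetal growth factor expressed from the paternal chromosome, had one of the largest differences (chromosome 11, 2129117 to 2149566). It was at 3.8 and 3.12 TPM in aNE_H and 1381 and 1175 TPM in pNE_H, a log2 difference of 8.16 ± 0.16 (SE, adjusted p = 6.4e-13, limma). The readthrough transcript INS-IGF2, which shares exons with it and can share its reads, was listed at 0 in aNE_H and at 10.2 and 7.74 TPM in pNE_H. Most of the IGF pathway was not called. The receptors IGF1R (35.1 and 26.4 against 26 and 25.8 TPM) and IGF2R (100.3 and 94 against 116 and 113 TPM) did not pass the test, nor did IGFBP2, an abundant binding protein (819.8 and 799.6 against 991 and 858 TPM). IGFBP4 was called higher, at 58.9 and 55.6 TPM in aNE_H and 157 and 139 TPM in pNE_H. Of the 26 IGF and imprinted genes tested, 4 were called higher and 2 lower (23.1%, beside 8.10% of all tested genes), and 1 of the 4 passed the filter through pNE_H alone. The other imprinted genes called were CDKN1C, a cell cycle inhibitor, higher at 57.4 and 50.0 TPM in pNE_H against 25.1 and 22.7 TPM, DLK1, a Notch-like membrane protein, lower at 32.9 and 21 TPM against 184 and 149 TPM, and PLAGL1, a zinc finger factor, lower at 4.93 and 5.56 TPM against 35.5 and 37.7 TPM.

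FGF signalling genes were mixed. Of 26 tested, 3 were called higher and 6 lower in pNE_H (34.6%, beside 8.10% of all tested genes), and 3 of the 6 passed the filter through aNE_H alone. FGFR1 had 225 and 201 TPM in aNE_H and 513 and 452 TPM in pNE_H (1.18 ± 0.09) and FGFR4 had 24.4 and 20.1 TPM and 82.9 and 76.2 TPM (1.80 ± 0.11), whereas FGFR3 was lower (29.4 and 25.6 against 7.89 and 10.8 TPM). Among targets and feedback inhibitors of ERK, SPRY4 was lower, at 203 and 188 TPM in aNE_H and 65.3 and 61.5 TPM in pNE_H (-1.61 ± 0.10), as was IER3 (42.8 and 46 against 11.1 and 11 TPM). The phosphatase DUSP4 was higher (43.9 and 38.8 against 120.3 and 119.6 TPM). DUSP6, a standard readout of ERK activity, was near the same level in both, at 337 and 352 TPM and 286 and 298 TPM, and ETV4, ETV5, SPRY1, SPRY2 and IL17RD also did not reach the fold criterion.

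WNT genes were called in both directions, 4 higher and 7 lower among 26 tested of 36 listed (42.3%, beside 8.10% of all tested genes). Of these, 1 of the 4 passed the filter through pNE_H alone and 2 of the 7 through aNE_H alone. SP5 (chromosome 2, 170715337 to 170718078), a transcription factor switched on by WNT through beta-catenin, had 68.6 and 33.3 TPM in aNE_H and 0.171 and 0.0905 TPM in pNE_H (-5.43 ± 0.39, adjusted p = 2e-07). It had the largest fall of the 15 ranked, and the aNE_H replicates lay far apart, both still well above pNE_H. AXIN2, another direct target of the pathway, was higher, at 35.1 and 32.8 TPM and 73.3 and 66.2 TPM (1.02 ± 0.10). Secreted WNT antagonists were exchanged between origins: SFRP5 was at 0.61 and 0.451 TPM in aNE_H and 108 and 90.4 TPM in pNE_H (6.03 ± 0.20), while FRZB was at 87.1 and 85.9 TPM and 2.83 and 3.97 TPM (-4.33 ± 0.13) and SFRP2 at 159 and 131 TPM and 53.3 and 49 TPM (-1.48 ± 0.11). Of the ligands, WNT5A was higher (4.78 and 3.62 against 59.4 and 61.2 TPM) and WNT4 lower (7.42 and 5.92 against 0.214 and 0.065 TPM). The receptor FZD5, an eye field gene, was lower (49.7 and 37.9 against 2.84 and 2.87 TPM).

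BMP pathway genes were called 6 higher and 5 lower among 18 tested (61.1%, beside 8.10% of all tested genes). The targets ID1 (48.8 and 35.2 TPM in aNE_H, 368 and 274 TPM in pNE_H, log2 difference 2.91 ± 0.18), ID3 (512 and 507 against 1141 and 973 TPM), BAMBI (5.25 and 4.38 against 33.1 and 28.5 TPM) and SMAD6 (6.01 and 6.7 against 17.5 and 12.7 TPM) were higher in pNE_H. ID4 (95.8 and 96.6 against 40.6 and 36.7 TPM) and the dorsal factor MSX1 (87 and 79.8 against 42.7 and 34.2 TPM), also targets, were lower. The ligand BMP2 was higher (17.4 and 15.4 against 59.9 and 59 TPM) and BMP4 lower (79.5 and 78.2 against 19.5 and 19.8 TPM). The secreted antagonists GREM1 (270.1 and 262 against 96.7 and 109 TPM) and FST (35.2 and 38.9 against 8.08 and 12.3 TPM) were lower, and CHRD, or chordin, was higher (1.3 and 0.802 against 6.48 and 4.65 TPM).

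Hedgehog and dorsoventral factors gave 2 higher and 5 lower calls among 12 tested of 25 listed (58.3%, beside 8.10% of all tested genes). Both higher calls passed the filter through pNE_H alone and 1 of the 5 lower through aNE_H alone. The dorsal paired-box factors PAX3 and PAX7 were lower: PAX3 had 54.2 and 50.3 TPM in aNE_H and 2.37 and 4.54 TPM in pNE_H (-3.62 ± 0.22, adjusted p = 4.4e-08), and PAX7 had 8.84 and 7.76 TPM and 0.713 and 0.592 TPM (-2.49 ± 0.17). On the ventral side FOXA2 and NKX6-1 (0.41 and 0.504 against 4.63 and 2.98 TPM) were higher at low levels. SHH itself did not pass the filter, at 0.0379 and 0.0184 TPM and 0.775 and 2.47 TPM. PTCH1, a direct Hedgehog target, did not reach the fold criterion (40.3 and 35.6 against 47.8 and 50.6 TPM). CDON and HHIP, which bind Hedgehog ligand, and GLI3 were called lower.

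General neural genes that were called were all lower in pNE_H. None of 17 pan-neural genes tested was called higher and 5 were called lower (29.4% called, beside 8.10% of all tested genes). Their median log2 difference was -0.78, beside -0.06 for all tested genes. SOX3 (34.7 and 28.1 against 5.87 and 3.85 TPM), SOX21 (12.9 and 8.15 against 3.62 and 3.02 TPM), ZIC1, LIX1 and FABP7 were the 5. SOX2, the core neural progenitor factor, was at 97.7 and 79.8 TPM in aNE_H and 101 and 87 TPM in pNE_H, and the progenitor filament gene NES at 271 and 247 TPM and 293 and 279 TPM, neither called. Of 15 Notch and neurogenesis genes tested, none was called higher and 4 were called lower (26.7%, beside 8.10% of all tested genes). Among the 4 were LFNG, which modifies Notch receptors (55.4 and 60.0 against 14.1 and 10.7 TPM), and the tubulin gene TUBB3 (180.3 and 164 against 70.2 and 59.2 TPM). NEUROG2, ELAVL3 and DCX, which mark cells becoming neurons, did not pass the filter in these libraries.

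Several genes best known from neurons and secretory cells were higher all the same, and NEFM, NEFL, CHGA and PENK are named here after their values were seen. The neurofilament gene NEFM had 56.3 and 47.3 TPM in aNE_H and 1952 and 1819 TPM in pNE_H (5.16 ± 0.12), and its partner NEFL had 11.7 and 11.2 TPM and 258 and 221 TPM (4.27 ± 0.10). CHGA, a protein of secretory granules, had 7.12 and 6.41 TPM and 294 and 241 TPM (5.11 ± 0.13). PENK, a neuropeptide precursor, was listed at 0 in aNE_H and at 20.1 and 19.8 TPM in pNE_H. The largest rises also took in SPX, another neuropeptide precursor (1.96 and 1.7 against 179 and 245 TPM), CPLX1, a regulator of vesicle release (0.534 and 1.38 against 152 and 116 TPM), and the cannabinoid receptor CNR1 (0.0571 and 0 against 51.9 and 52.7 TPM). FNDC5 (6.14 and 4.04 against 342 and 330.1 TPM) and NELL1 (0.558 and 0.586 against 72.5 and 90.9 TPM) completed the 15 largest with the HOX, retinoid, IGF and WNT genes above. Among the largest falls, GAD1, which makes GABA, had 22.5 and 30.8 TPM in aNE_H and 2.08 and 1.54 TPM in pNE_H, and SLITRK1, a neuronal membrane protein, 16.6 and 15.9 TPM and 0.26 and 0.195 TPM. ENC1, an abundant gene of neural tissue, was at 458 and 355 TPM and 47.6 and 33.9 TPM (-3.30 ± 0.19). The others of the 15 largest falls were CEACAM21 (107 and 118 against 7.51 and 5.57 TPM), MUSTN1 (21.5 and 26.6 against 0.905 and 1.83 TPM) and the forkhead factor FOXB1 (10.2 and 7.95 against 0.169 and 0 TPM), beside the regional and WNT genes given above.

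Guidance and matrix genes, which shape contacts between neighbouring segments, were called in both directions. Of 35 axon guidance genes tested, 8 were called higher and 4 lower (34.3%, beside 8.10% of all tested genes), and 1 of the 8 passed the filter through pNE_H alone. FLRT3, a repulsive adhesion molecule, had 24.2 and 24.7 TPM in aNE_H and 111 and 126 TPM in pNE_H (2.23 ± 0.12), and the semaphorin receptor PLXNA2 had 8.62 and 5.95 TPM and 65.3 and 49.5 TPM (2.82 ± 0.17). EPHA2 (169 and 147 against 46.2 and 46.3 TPM), EPHA7 (45.3 and 33.7 against 12.8 and 14.8 TPM), SEMA3A and DCC were lower. Of 41 adhesion and matrix genes, 5 were called higher and 6 lower (26.8%). The fibrous matrix genes FN1 (114 and 107 against 273 and 234 TPM), TNC (55.5 and 47.7 against 146 and 168 TPM) and COL1A2 (160.5 and 156 against 409 and 405 TPM) were higher, with FREM2 and COL22A1. COL22A1, a collagen of tissue junctions, had 1.86 and 0.276 TPM in aNE_H and 3.57 and 6.03 TPM in pNE_H, and its difference of 1.57 came to 0.98, not called, without the second aNE_H library. The epithelial cadherins CDH1 (12.1 and 12 against 1.83 and 3.28 TPM) and CDH3 (20.4 and 19.7 against 4.62 and 3.83 TPM) were lower, with CLDN4, CLDN6, ITGA6 and COL9A3.

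Because the labels give a different plating density for each origin, YAP and TEAD pathway components and genes that respond to cell crowding through them were read as a list. None of 22 tested was called higher and 6 were called lower in pNE_H, the group with the higher density by that reading. This was 27.3% called, beside 8.10% of all tested genes, with a median log2 difference of -0.54 for the list. CCN1 had 81 and 77.8 TPM in aNE_H and 20.2 and 29.7 TPM in pNE_H (-1.66 ± 0.14), CCN2 had 158 and 154 TPM and 65 and 84.8 TPM (-1.06 ± 0.10), and THBS1, AMOTL1, AMOTL2 and NUAK2 were the other 4. ANKRD1, a further YAP target, did not pass the test (78.4 and 83.7 against 74.1 and 127 TPM). Origin and density cannot be told apart here. At day 2, with equal plating density, 1 gene of this list was called higher in pNE and 1 lower (ANKRD1), beside 2.48% and 1.34% of all tested genes. In forebrain and midbrain medium the densities, read in the same way, differed as in hindbrain medium. The origin difference in hindbrain medium was called more toward aNE_H than in forebrain medium for 5 of the 22 genes (2.38% of all tested genes) and more toward pNE_H for 1. Against midbrain medium these were 9 (3.45% of all tested genes) and 0. The part of density was not tested.

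Metabolic and proliferation lists differed in their share of calls. Of 23 hypoxia and glycolysis genes, 4 were lower and 1 higher (21.7%, beside 8.10% of all tested genes). The glucose transporters SLC2A3 (1080.0 and 1035 TPM in aNE_H, 182 and 232 TPM in pNE_H, log2 difference -2.36 ± 0.09) and SLC2A1 (1187 and 1097 against 583 and 480.4 TPM) were among the most abundant genes called. VEGFA, a hypoxia target, did not pass the test (38.2 and 39.8 against 43.8 and 41.3 TPM). Of 22 cholesterol genes 1 was called, in the direction of pNE_H, a share of 4.55% and under that of all tested genes. Of 28 cell cycle genes 2 were called, a share of 7.14% beside 8.10% for all tested genes: CDKN1C higher and CDKN2A lower (7.79 and 8.79 against 1.6 and 1.21 TPM). MKI67, a marker of dividing cells, was at 49.1 and 38.1 TPM in aNE_H and 41.4 and 40.6 TPM in pNE_H. The plot of calls by list sets these shares beside those of all tested genes.

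**Figure D3:**
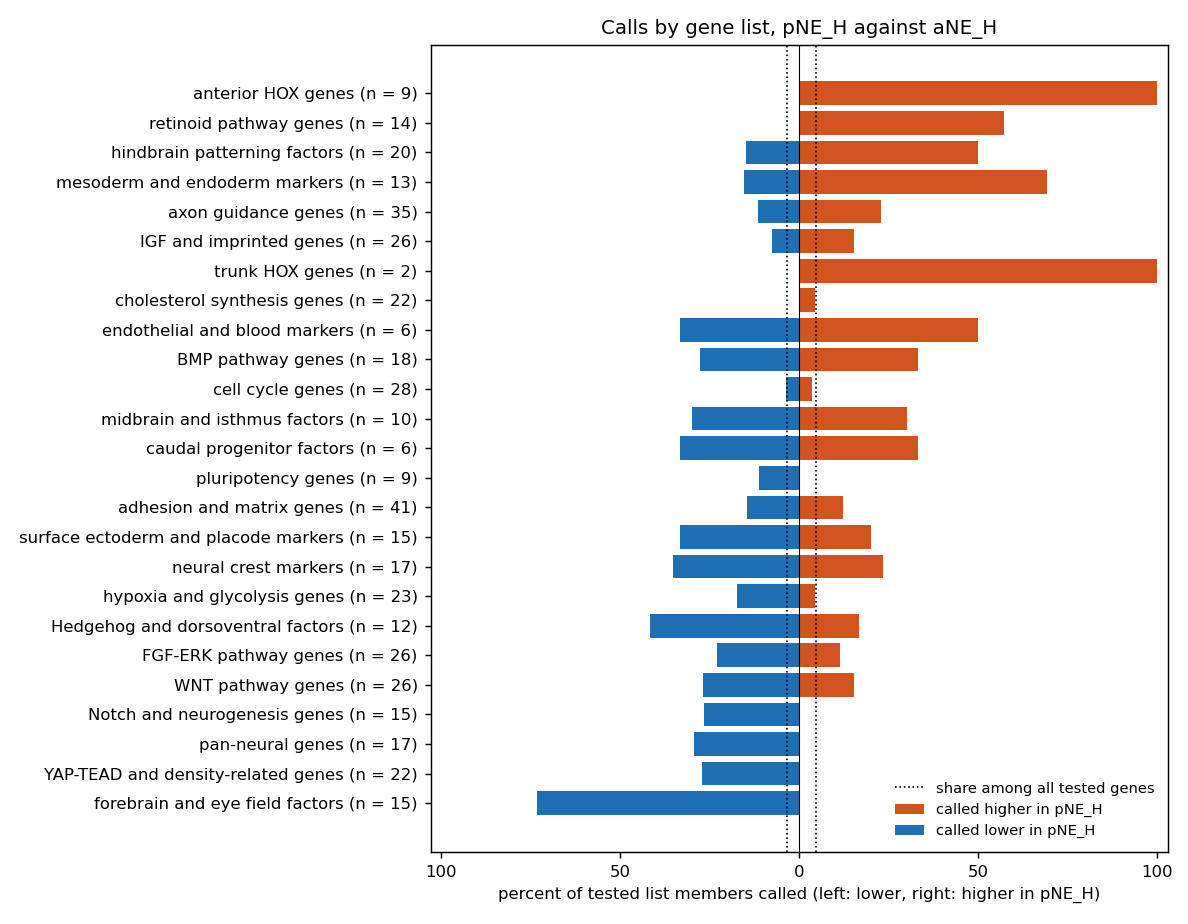
Share of the tested members of each of 25 gene lists called higher (orange, to the right) or lower (blue, to the left) in pNE_H, in percent on the x axis, with dotted lines at the shares among all tested genes (4.65% higher, 3.45% lower) and the number tested in parentheses. The 2 HOX lists, which hold 9 and 2 tested genes, lie wholly to the right, which the filter fixed because each of these genes passed it through pNE_H alone. The forebrain list has 11 of 15 to the left and none to the right.

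Markers of other cell types the cultures could hold were checked in every library. Of 23 mesoderm and endoderm markers, 13 passed the filter, 9 were called higher and 2 lower in pNE_H (3 of the 9 passed through pNE_H alone and both lower ones through aNE_H alone, and 84.6% were called beside 8.10% of all tested genes), and the list's summed level was 23.9 and 23.3 TPM in aNE_H and 112 and 108 TPM in pNE_H. TBX1 (1.74 and 2.06 against 22.5 and 20.9 TPM), FOXC1 (2.1 and 1.8 against 19.6 and 16.7 TPM) and the somite factor MEOX1 (0.876 and 1.42 against 14 and 17.5 TPM) were the highest in pNE_H. TBXT, the primitive streak marker, was listed at 0 in all 4 libraries, and SOX17, a definitive endoderm marker, was listed at 0 in aNE_H with 1.41 and 0.928 TPM in pNE_H. The part of such cells in the differences above was not tested.

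Neural crest markers were called 4 higher and 6 lower among 17 tested (58.8%, beside 8.10% of all tested genes), 2 of the 6 having passed the filter through aNE_H alone, with a summed level of 355 and 336 TPM in aNE_H and 276 and 277 TPM in pNE_H. SOX10, a crest and glial factor, was higher (4.96 and 3.9 against 16.2 and 12.7 TPM), as was SOX8, while SOX9 (117 and 107 against 45.9 and 48.2 TPM), TWIST1, TFAP2B, PAX3 and PAX7 were among the lower. Surface ectoderm and placode markers gave 3 higher calls, 1 of them through pNE_H alone, and 5 lower among 15 (53.3%), at 1589.6 and 1469.9 TPM in aNE_H and 1849 and 1627 TPM in pNE_H in sum. Most of that sum was the keratin genes KRT8 (669.5 and 631 against 872 and 762 TPM) and KRT18 (723 and 669 against 801 and 709 TPM), neither of which was called, and the skin markers KRT5, KRT14 and TP63 had at most 0.403 TPM. Endothelial and blood markers gave 3 higher and 2 lower calls among 6 tested (83.3%), but all 3 higher ones passed the filter through pNE_H alone, so their direction was fixed. The list was at 46.1 and 43.2 TPM in aNE_H and 26.1 and 30.4 TPM in pNE_H in sum. Pluripotency genes gave 1 call among 9 tested, a share of 11.1% near the 8.10% of all tested genes. It was ZFP42, lower at 2.2 and 2.63 TPM against 27.6 and 26.3 TPM. POU5F1 was at 2.14 and 3.4 TPM in aNE_H and 4.58 and 5.15 TPM in pNE_H, and NANOG did not pass the filter.

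At day 2, before the hindbrain medium and with equal plating, the same 14260 genes gave 545 calls between pNE and aNE (3.82%), 354 higher (2.48%) and 191 lower (1.34%). These libraries are separate from the day-4 ones. Of the 663 genes called higher in pNE_H, 131 were already higher at day 2 (19.8% of these 663, and 37.0% of the 354), and 17 were called lower there. Of the 492 called lower, 55 were already lower (11.2%, and 28.8% of the 191) and 36 were called higher. The difference between the day-4 and the day-2 contrast was itself called for 1249 genes (8.76%), 624 toward pNE_H (4.38%) and 625 toward aNE_H (4.38%). From day 2 to day 4, 12.5% of the genes were called changed in cells of posterior origin and 9.77% in those of anterior origin.

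Most anterior HOX genes moved further apart after day 2. HOXB1 was at 15.2 and 19.5 TPM at day 2, HOXB2 at 10.5 and 11.7 TPM and HOXB3 at 0.981 and 0.709 TPM in pNE, all far under their day-4 values. The difference was called larger at day 4 for 8 of the 9 anterior HOX genes, beside 4.38% of all tested genes. All 9 had passed the filter through pNE_H alone. IGF2 was at 2.63 and 1.77 TPM in aNE against 2.18 and 3.21 TPM in pNE at day 2, with no call there (change of the difference 7.96 ± 0.23, adjusted p = 1.3e-10). SFRP5, at 1.21 and 1.05 TPM and 0.369 and 0.865 TPM, was likewise without a call at day 2.

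CYP26A1 had 219 and 223 TPM in aNE against 352 and 348 TPM in pNE at day 2, high in both origins, and the day-4 difference came with a lower level in both. RARB differed already at day 2, with 1.28 and 1.08 TPM in aNE against 21.4 and 20.0 TPM in pNE, and DHRS3 too, with 15.1 and 18.3 TPM and 56.4 and 62.9 TPM. Forebrain genes fell in both origins between the stages: OTX2 had 203 and 214 TPM in aNE against 28.3 and 26.6 TPM in pNE at day 2, FEZF1 323 and 325 TPM and 5.66 and 9.51 TPM, and LHX5 258 and 258 TPM and 38.7 and 51.1 TPM. VAX1 instead was low in both at day 2 (aNE 0.56 and 0.549 TPM, pNE 1.27 and 2.21 TPM) and higher at day 4 in aNE_H alone of the 2 groups.

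Opposite calls at day 2 and in the hindbrain medium were found for 53 genes, 17 now higher and 36 now lower in pNE_H, and the change of the difference was called for each. GBX2 was the most extreme: 1.04 and 1.05 TPM in aNE against 172 and 216 TPM in pNE at day 2, against 91.9 and 88 TPM in aNE_H and 33.1 and 24.8 TPM in pNE_H (change of the difference -8.18 ± 0.28, adjusted p = 6e-10). ID1 turned the other way, from 131 and 135 TPM in aNE against 15 and 21.3 TPM in pNE at day 2 (5.74 ± 0.25). Of the FGF list, 15 of 26 genes were called higher in pNE at day 2, the stage with FGF2 in its medium (2.48% of all tested genes were), and 3 were in the hindbrain medium (4.65% of all tested genes). The change of the difference was called toward aNE_H for 18 of the 26 and toward pNE_H for 3, beside 4.38% of all tested genes in each direction. SPRY4, FGF19 and IER3 reversed: SPRY4 was at 6.4 and 5.03 TPM in aNE against 77.5 and 86 TPM in pNE at day 2 (-5.24 ± 0.15). DUSP6 was at 29.3 and 33.6 TPM and 274 and 238 TPM at day 2, and at 337 and 352 TPM in aNE_H and 286 and 298 TPM in pNE_H at day 4. CDKN1C, IRX3, SOX10 and CER1 reversed toward pNE_H, and FABP7, SLC2A1, KDR and GRHL3 toward aNE_H. The plot of single genes by stage shows these courses.

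**Figure D4:**
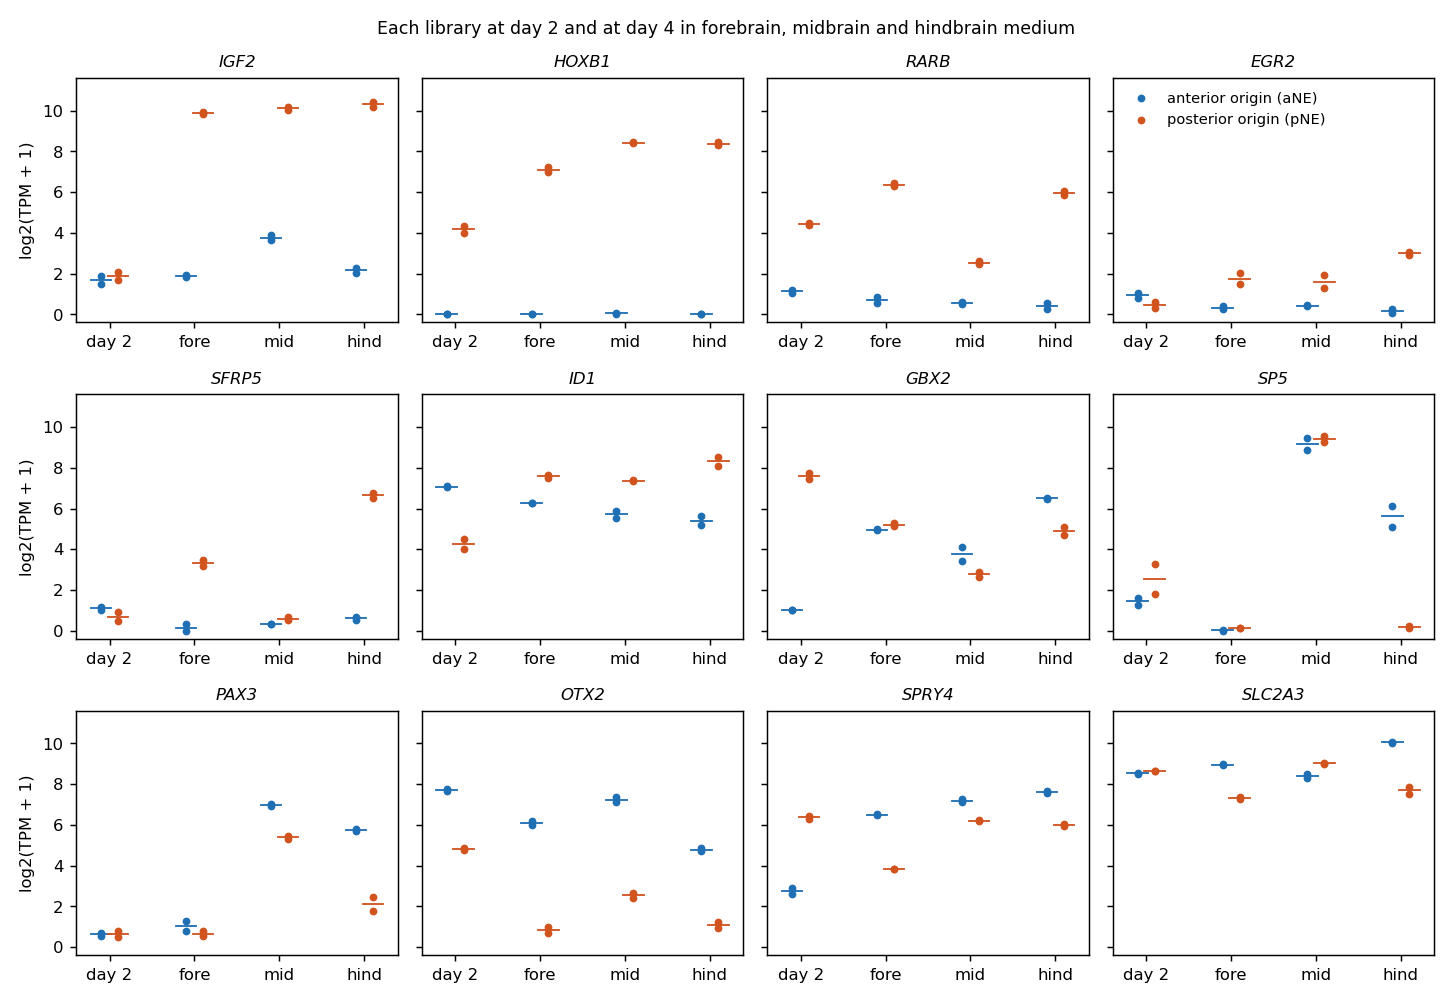
Level of 12 genes in each library, as log2(TPM + 1) on the y axis, at day 2 and at day 4 in forebrain (fore), midbrain (mid) and hindbrain (hind) medium, with points for the 2 libraries of a group and bars for their mean, blue for aNE and orange for pNE. GBX2 and SPRY4 are higher in pNE at day 2 and lower in it in the hindbrain medium, and IGF2 parts at day 4 in all 3 media.

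Origin was also compared in the forebrain (pNE_T against aNE_T) and midbrain (pNE_M against aNE_M) media, in separate libraries, with plating density read from the labels in the same way. On the genes expressed in the hindbrain medium, 1144 were called in forebrain medium (8.02%) and 808 in midbrain medium (5.67%). With the level filter applied over all 18 libraries, 1323 were called in forebrain, 978 in midbrain and 1164 in hindbrain medium, and 655 at day 2. Of the 663 higher in pNE_H, 334 were also higher in forebrain medium (50.4%, and 57.2% of the 584 higher there, 4.10% of all tested) and 221 in midbrain medium (33.3%, and 48.6% of the 455, 3.19% of all tested). Of the 492 lower, 225 were also lower in forebrain medium (45.7%, and 40.2% of the 560, 3.93% of all tested) and 134 in midbrain medium (27.2%, and 38.0% of the 353, 2.48% of all tested). In all 3 media 154 genes were higher and 89 lower in the cells of posterior origin. IGF2 was one of these, at 2.8 and 2.55 TPM in aNE_T and 900.0 and 972 TPM in pNE_T, and at 11.4 and 14 TPM in aNE_M and 1064 and 1156 TPM in pNE_M.

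The origin difference itself was called different between the hindbrain and forebrain media for 825 genes (5.79%), 486 toward pNE_H (3.41%) and 339 toward aNE_H (2.38%). Against the midbrain medium it was called for 1054 (7.39%), 562 toward pNE_H (3.94%) and 492 toward aNE_H (3.45%). Both of these tests use the 4 libraries that gave the hindbrain calls, so genes picked by those calls lean toward a larger difference there. With that limit, a larger difference in the hindbrain medium than in both other media, by both tests, was found for 140 of the 663 genes higher and 69 of the 492 lower. SFRP5 was among the former, with 10.02 and 8.05 TPM in pNE_T and 0.587 and 0.419 TPM in pNE_M beside its 108 and 90.4 TPM in pNE_H (difference of differences 2.86 ± 0.28 against forebrain and 5.78 ± 0.28 against midbrain medium). ID1 (1.58 and 1.25), EGR2, PAX8, WNT5A, FLRT3, TBX1 and GATA4 also met this rule. On the lower side were SP5, PAX3 and ID4. SP5 was at 706 and 473 TPM in aNE_M and 756 and 625 TPM in pNE_M, high in both origins, and at 0.0243 and 0 TPM in aNE_T and 0.0895 and 0.0967 TPM in pNE_T, so the hindbrain medium was the medium in which the origins parted. PAX3 was at 120.4 and 130.0 TPM in aNE_M and 43 and 38.9 TPM in pNE_M, and stayed under 2 TPM in every forebrain-medium library.

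For NELL1, RARB, DHRS3, HOXB1 and OTX2 the origin difference in the hindbrain medium was called different from that in 1 of the other 2 media and not from that in the other. NELL1 was at 79.5 and 89.9 TPM in pNE_T and 0.922 and 1.1 TPM in pNE_M (difference of differences 7.09 ± 0.25 against midbrain medium, -0.62 ± 0.25 against forebrain medium, the latter not called). In aNE_M it was at 4.41 and 4.05 TPM, so in midbrain medium it was called lower in cells of posterior origin (-1.38 ± 0.18). RARB was at 77.8 and 85.2 TPM in pNE_T and 4.48 and 5.16 TPM in pNE_M, and DHRS3 at 119.8 and 138 TPM and 16.6 and 17 TPM, each with a smaller origin difference in midbrain medium (3.55 and 2.85). HOXB1 reached 340.0 and 346 TPM in pNE_M, close to its hindbrain level (difference of differences -0.02 ± 0.19, not called), and 126 and 147 TPM in pNE_T (1.27 ± 0.19). RARB, DHRS3 and HOXB1 were called higher, and OTX2 lower, in cells of posterior origin in all 3 media. CDX2, a caudal factor, was at 247 and 252 TPM in pNE_M beside 3.34 and 4.39 TPM in pNE_H. OTX2 differed less in the hindbrain medium than in the forebrain medium (1.55), where aNE_T had 71 and 62.7 TPM and pNE_T 0.988 and 0.634 TPM. Against the midbrain medium its difference of differences was 0.998 ± 0.20 (adjusted p = 0.0038, limma), just short of the fold criterion. Its levels there were 136 and 162 TPM in aNE_M and 4.3 and 5.38 TPM in pNE_M. The plot of origin differences sets every gene's value in the hindbrain medium beside its value at day 2 and in each other medium.

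**Figure D5:**
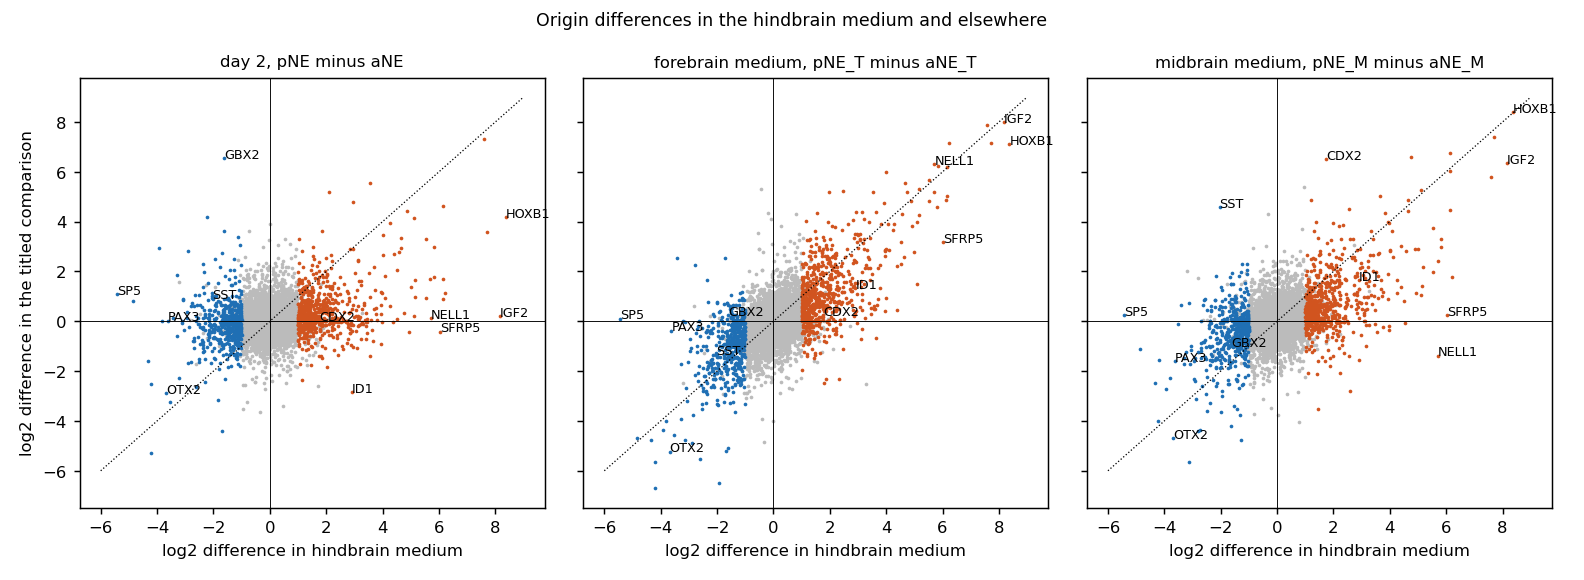
Log2 difference between posterior and anterior origin in hindbrain medium (x axis) against the same difference at day 2, in forebrain medium and in midbrain medium (y axes), on the log2(TPM + 1) scale, 1 point per tested gene, orange for those called higher and blue for those called lower in pNE_H, with a dotted line of equality. IGF2 lies near 0 at day 2 and near the line in forebrain medium, and GBX2 and ID1 lie in opposite corners at day 2.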

How the data were processed

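Poly-A RNA was measured in 18 libraries, 9 groups of 2. The authors deposited TPM values as 1 table with 1 row per gene or transcript and 1 column per library, in which each column sums to the same total. The submitters' processing notes name bcl2fastq, FastQC, Trim Galore, kallisto, deepTools and hg38. Versions, the annotation and the use of strand are not given in the sources used here, and read depth is unknown.

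From the deposited TPM, log2(TPM + 1) was taken, so a pseudocount of 1 makes the differences of low genes smaller than their ratios. The 14260 genes that reached 1 TPM in 2 or more of the 4 hindbrain-medium libraries were fitted with limma 3.58.1 (R 4.3.3). The model held the 9 group means over the 18 libraries, which left 9 residual degrees of freedom, and used a variance trend. P-values are two-sided and Benjamini-Hochberg adjusted over those genes. Values after ± are SE. A difference of differences is an interaction contrast from this fit. The procedure was tested on simulated data. Promoter windows and gene positions are from RefSeq on GRCh38.p14, where 13684 of 13699 tested symbols matched. Python 3.11.15 with pandas 2.3.3 and matplotlib 3.10.9 made the tables and figures.

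The comparison, the 25 gene lists and the alternatives were chosen with earlier results of these data known. Genes named are list members, the 15 largest rises and 15 largest falls, and the 5 largest interactions in each direction, among called genes with a symbol, with at least 5 TPM in the highest group and, for the rises and falls, groups that do not overlap. The alternatives were another pseudocount, other filters, scaling, quantile normalization, other fits, a replicate block, and leaving out each library. Results for some genes are not reported here.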

Additional observations from a re-analysis of the deposited data

Results flagged for a closer look

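The origin difference in the hindbrain medium was set against the origin difference at day 2 and in each other medium by an interaction contrast, and the results below are those whose difference of differences (hindbrain medium minus the other, log2 scale) passed limma's test at an adjusted p under 0.05 with a size of at least 1. Each value rests on 2 libraries per group.

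Against day 2, 1249 genes were called. The most negative were GBX2 at -8.18, CEACAM21 at -6.88, SP5 at -6.52, F13A1 at -6.44 and HAS3, which makes hyaluronan, at -5.74. HAS3 was at 10.1 and 9.02 TPM in aNE and 70.7 and 77.3 TPM in pNE at day 2, and at 79.9 and 70.7 TPM in aNE_H and 11.5 and 7.17 TPM in pNE_H. F13A1, a clotting factor subunit, was at 1.13 and 0.83 TPM and 35.8 and 34.8 TPM at day 2 and 15.2 and 17.9 TPM and 2.27 and 3.17 TPM in the hindbrain medium. CEACAM21 went from 1.62 and 1.47 TPM in aNE and 19.2 and 18.3 TPM in pNE to 107 and 118 TPM and 7.51 and 5.57 TPM. In these 3 genes, as in GBX2, the order of the origins turned between the stages. The most positive were IGF2 at 7.96, SFRP5 at 6.44, ID1 at 5.74, NELL1 at 5.59 and COL25A1, a membrane collagen, at 5.34. COL25A1 was at 2.44 and 0.42 TPM in aNE and 0.911 and 0.444 TPM in pNE, and at 0.828 and 1.1 TPM in aNE_H and 57.4 and 59.6 TPM in pNE_H.

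Against the forebrain medium, 825 genes were called. The most negative were MUSTN1 at -5.98, NR2F1 at -5.77, SP5 at -5.55, CALB2 at -5.05 and WLS at -4.54. NR2F1, a nuclear receptor of the developing cortex and hindbrain, was at 0.659 and 0.422 TPM in aNE_T and 57.7 and 64 TPM in pNE_T, and at 23.3 and 22.2 TPM in aNE_H and 18.1 and 15 TPM in pNE_H. WLS, which carries WNT ligands to the cell surface, was at 5.76 and 7.03 TPM and 162 and 139 TPM in forebrain medium and 251 and 246 TPM and 204 and 234 TPM in hindbrain medium. Both genes differed by origin in the forebrain medium and were not called in the hindbrain medium. CALB2, a calcium-binding protein, was at 8.32 and 9.96 TPM and 47.2 and 47.5 TPM, then 32.9 and 29.7 TPM and 3.39 and 3.97 TPM. The most positive were SIX6 at 4.57, SMOC1 at 4.51, RNA5SP428 at 4.28, LBH at 4.26 and CER1 at 4.18. SIX6, an eye field factor, was at 161 and 159 TPM in aNE_T and at 2.86 and 3.2 TPM in aNE_H, and its difference was smaller in the hindbrain medium. RNA5SP428 is a ribosomal RNA pseudogene with uneven replicates (4.01 and 0 TPM in pNE_T). Its reads may belong to other copies.

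Against the midbrain medium, 1054 genes were called. The most negative were SST at -6.64, SP5 at -5.68, TRGJP1 at -5.24, CDX2 at -4.77 and CLDN11 at -4.43. SST, the somatostatin precursor, was at 1.62 and 2.05 TPM in aNE_M and 70.8 and 64.4 TPM in pNE_M, and the order was the opposite in hindbrain medium, at 39.8 and 34.4 TPM in aNE_H and 8.33 and 8.12 TPM in pNE_H. CLDN11, a tight junction protein, was at 98.7 and 91.2 TPM in pNE_M and 6.05 and 5.79 TPM in pNE_H. TRGJP1, a receptor gene segment, had replicates that disagreed (28.1 and 2.68 TPM in pNE_M) and an adjusted p of 0.045 in limma. The most positive were NELL1 at 7.09, SFRP5 at 5.78, APLNR at 5.38, SHISA2 at 4.97 and ATP8A1 at 4.81. APLNR, the apelin receptor, was at 67.3 and 77 TPM in aNE_M and 9.48 and 9.54 TPM in pNE_M, and at 1.43 and 1.45 TPM in aNE_H and 15.4 and 12 TPM in pNE_H. SHISA2, an inhibitor of WNT and FGF receptors, was at 13.7 and 14.4 TPM and 0.231 and 0.397 TPM in midbrain medium and 11 and 8.22 TPM and 29.4 and 26.2 TPM in hindbrain medium, so both genes turned.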

How the results depend on the processing

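With 2 libraries per group and an unknown read depth, small differences in low genes could not be resolved. Each of the 4 hindbrain-medium libraries was left out in turn, with the lone library assumed to vary like the other groups. Called genes then numbered 1137 to 1160, against 1155. A pseudocount of 0.1 gave 1391, no level filter 1122, a filter over all 18 libraries 1164, TPM of at least 5 798, median-ratio scaling 1162 (60.8% higher), quantile normalization 1243 (54.1% higher), a fit of only the libraries compared 1145 and no variance trend 1143. The TPM of at least 5 filter took the changes from day 2 in pNE_H from 1782 genes to 1159. In aNE_H it took them from 1393 to 857. This filter left 10990 genes to test, fewer than the main filter, and the cause of the lower counts was not tested.

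Adjusted p alone, without the fold criterion, gave 3788 genes (1570 higher, 2218 lower) in hindbrain medium, 2199 at day 2, 3384 in forebrain and 2668 in midbrain medium. By this rule the changes from day 2 numbered 5863 for pNE_H and 4848 for aNE_H, and the differences of differences 2734 against day 2, 1912 against forebrain and 2231 against midbrain medium. Fewer criteria must call more genes.

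The labels give the groups shared replicate numbers. Deviations of same-numbered aNE_H and pNE_H libraries had a correlation of 0.0561, and over 36 pairs of groups it ran from -0.136 to 0.107. These values gave no sign of pairing, but they cannot show that no batch was shared. With the replicate number as a block, 1154 genes were called (660 higher, 494 lower), 1148 of them in common, and 1241, 826 and 1046 in the 3 differences of differences.

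For 183 genes named or chosen by the rule, 2323 of 2360 values under an alternative kept their direction and call. Calls were lost by 14 genes in at least 1 setting, by most of them close to a log2 difference of 1, and the cause was not tested. Without the first aNE_H library these were GLI3 and TCF7L1, without the second AXIN2, COL22A1 and FABP7, without the first pNE_H library AXIN2, CCN2, CLDN6, FABP7, GLI3, ID3 and SMAD6, and without the second CLDN4, COL22A1, HHIP, MSX1 and SLC2A1. COL22A1 lost its call also in the fit of only the libraries compared, and TWIST1 and MSX1 at a pseudocount of 0.1. FABP7 and GLI3 lost it under both scalings and CCN2 under quantile normalization. Differences that were not called changed sign without 1 library for 3 genes. That of ANKRD1 (0.26) ran from -0.13 without the second pNE_H library to 0.64 without the first, that of MKI67 (-0.08) from -0.26 without the second aNE_H library to 0.10 without the first, and that of SOX2 (0.08) from -0.062 without the second aNE_H library to 0.23 without the first, with -0.022 without the first pNE_H library.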
